A study of Homo sapiens with 4 samples.

Results

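The genes described here encode the proteasome and the proteins that assemble and open it. They were taken as every gene whose symbol is PSMA, PSMB, PSMC, PSMD, PSME, PSMF or PSMG followed by a number, with PSMB8 and PSMB9 left out. That rule gave 46 genes of the 26255 listed, and 44 of them reached the level set for testing: 2 or more libraries had to hold 1 FPKM or more. FPKM scales the fragments of a gene to its transcript length and to the depth of the library, so levels can be set side by side between genes of different length. PSMA8, a testis form of an alpha subunit, and PSMB11, a thymus form of a catalytic subunit, were listed at 0 in all 4 libraries and were not tested.

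The proteasome is the barrel-shaped protease that destroys proteins tagged with ubiquitin. Its core particle is a stack of rings of alpha and beta subunits with the active sites inside, and the regulatory particle, made of a ring of ATPases and a set of non-ATPase subunits, binds the ubiquitin chain, unfolds the substrate and feeds it through the gate of the alpha ring. Subunits are needed in fixed proportion, dedicated chaperones guide their assembly, and the transcription factor NFE2L1 raises the transcription of subunit genes when proteasome activity falls.

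RNA was sequenced from HCT116, an established human colorectal cancer line, to ask how loss of C14orf159 (named DGLUCY in current nomenclature) bears on migration, invasion and spheroid growth. One group held 2 libraries of C14orf159 knockout cells, called KO 1 and KO 2, whose columns are headed sgDGLUCY. The other held 2 libraries of control cells, called EV control 1 and EV control 2, which the labels describe as carrying an empty vector and whose columns are headed AAVS1, a site often cut as a neutral control. Nothing in the labels says whether the libraries of a group came from separate cultures or clones, how the knockout was made beyond that column heading, or when the cells were collected, so p-values measure nothing beyond how these particular libraries vary, and that variation may be technical.

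The targeted gene was measured at 16.2 and 16.4 FPKM in the EV controls (1, then 2), against 2.52 in KO 1 and 10.8 in KO 2. Both KO libraries lay below both controls, KO 1 at 15.5% and KO 2 at 66.2% of the control mean, and the group difference of -1.42 on the log2(FPKM + 1) scale did not pass the test (limma adjusted p = 0.314). KO 1 and KO 2 are therefore also given alone below. Of 7 epithelial markers, 6 reached 1 FPKM, and VIL1 did not; their summed level was 3371 to 3544 FPKM in the controls and 3350 to 3715 in the KO libraries. The defining leukocyte markers PTPRC and CD3E were listed at 0 throughout, none of 3 fibroblast and none of 2 endothelial markers reached 1 FPKM, and the leukocyte list summed to 1.88 to 2.47 FPKM in the controls and 1.90 to 2.87 in the KO libraries, all of it CD68. Judged by low values within a fixed window, library depth was roughly 12.5 to 13.4 M (mega) fragments. The window itself bounds this estimate, so the depth and the fragment numbers and counting errors built on it are rough. A median proteasome gene then rested on an estimated 1657 fragments in its lowest library, a counting error of about 2.46%, and PSMB10 in KO 1 on 188, an error of 7.30%. Over the 2997 genes averaging 30 FPKM or more, the robust SD of the log2 difference was 0.076 between the EV controls and 0.208 between the KO libraries, so the KO libraries differed more from each other than the controls did.

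Promoter sequence was examined because NFE2L1 and NFE2L2 bind the antioxidant response element and NF-Y binds the CCAAT box, both known in proteasome promoters. RefSeq promoter entries (GRCh38.p14, used for sequence alone because the expression values rest on hg19) were found for 40 of the 46 genes, and PSMA7, PSMB1, PSMB6, PSMB7, PSMD4 and PSMG3 had none. The letters TGACNNNGC, the core of the antioxidant response element, occurred on either strand within 250 bases before the start in 12 of the 40 (30%), against 13.2% of all 27305 gene symbols in the table and 10.9% of its 35116 promoters. CCAAT on either strand occurred in 18 of the 40 (45%), against 37.0% of symbols and 32.0% of promoters. A match is a description of letters and no evidence of binding. The matches in 6 genes, from the beta ring to the chaperones, are printed first, with TGACNNNGC in capitals on the gene's own strand, followed by the CCAAT match (ATTGG on the gene's own strand) of the genes with the lowest and the highest group difference, PSMD10 and PSMD8.
PSMB3: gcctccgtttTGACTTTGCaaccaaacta
PSMD12: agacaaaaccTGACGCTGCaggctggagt
PSMD5: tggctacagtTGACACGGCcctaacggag
PSMD9: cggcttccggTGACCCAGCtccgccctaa
PSME1: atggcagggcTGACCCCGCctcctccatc
PSMG1: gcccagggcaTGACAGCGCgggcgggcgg
PSMD10: aaggccggtgATTGGtgaagctcta
PSMD8: catgttcattATTGGaaccgtgagg

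In the order printed, these stretches lie in RefSeq GRCh38.p14 at chr17:38752627-38752655 (plus strand), chr17:67366724-67366752 (minus strand), chr9:120843038-120843066 (minus strand), chr12:121888678-121888706 (plus strand), chr14:24136098-24136126 (plus strand), chr21:39183616-39183644 (minus strand), chrX:108091604-108091628 (minus strand) and chr19:38374473-38374497 (plus strand). Each is upstream of the annotated start. The capitals of PSME1 begin 86 bases before its start and those of PSMG1 183 bases before. Tested genes with TGACNNNGC had a median group difference of -0.02 (n = 12), and tested genes with a promoter entry but no match -0.01 (n = 26). For CCAAT the medians were -0.01 (n = 17) and -0.02 (n = 21). By library, genes with TGACNNNGC had medians of -0.10 in KO 1 and 0.07 in KO 2, and genes without it -0.06 and 0.07. Genes with CCAAT had medians of -0.10 and 0.12, and genes without it -0.05 and 0.05. Each set was lower in KO 1 than in KO 2, and these medians were not tested.

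No proteasome gene passed the test between the groups. The count of called genes was 0 of 44 in each direction with limma (adjusted p under 0.05), where 0.0551% of all 12701 tested genes were called higher and 0.0551% lower, that is 7 and 7 genes. At an unadjusted p under 0.05 the count was also 0 of 44 in each direction, against 9.23% of all genes higher and 7.22% lower. Limma without the mean-variance trend and the robust form of limma-trend likewise called 0. Group differences of the 44 genes ran from -0.19 (PSMD10) to 0.19 (PSMD8) on the log2(FPKM + 1) scale with a median of -0.01, where the median of all tested genes was 0.00.

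The group differences were small in size as well. The median absolute group difference was 0.07 for the proteasome genes and 0.14 for all tested genes. The difference between the EV controls themselves had a median size of 0.05 and 0.07. Against the control mean, the median size for the proteasome genes was 0.10 in KO 1 alone and 0.10 in KO 2 alone. For all tested genes it was 0.15 and 0.18. The sets were not matched for level: in EV control 1 the median was 115 FPKM for the proteasome genes and 11.0 for all tested genes. The 95% interval of the group difference lay within a 1.5-fold change in either direction (0.58 on the log2 scale) for 43 of the 44 genes; the exception was PSMB10, with an interval of -0.83 to 0.45. A p-value that misses the threshold does not show that levels were equal, and these intervals are the size of change that 2 libraries per group leave possible. In bulk RNA, fewer cells of a kind and less RNA per cell cannot be told apart.

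**Figure D1:**
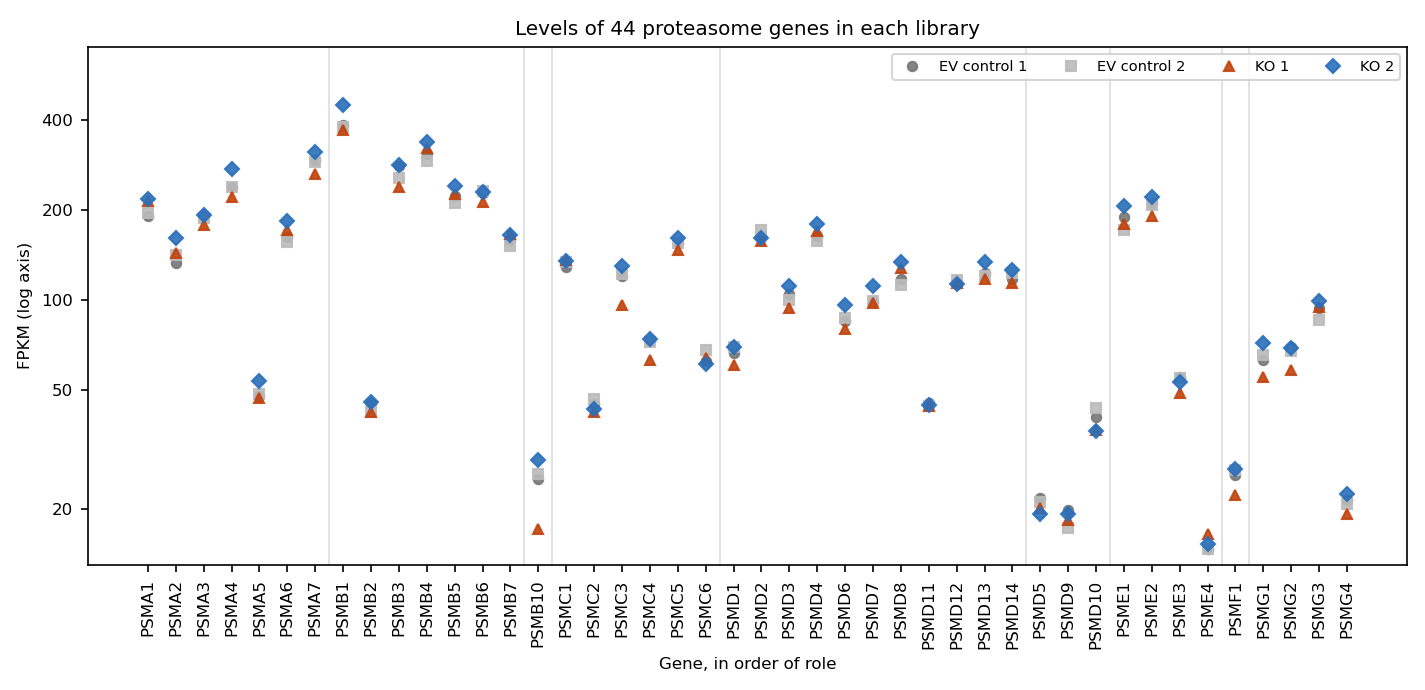
FPKM (log axis) of the 44 tested proteasome genes in each of the 4 libraries, one marker shape per library, with vertical lines between role groups. Levels run from PSME4 near 15 FPKM to PSMB1 near 400. The KO libraries lie furthest apart in PSMB10, where KO 1 is at 17.1, and PSMC3 and PSMG1 also show wide gaps.

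Levels spanned a 25.8-fold range, from a mean of 15.3 FPKM for the activator PSME4 to 395 for PSMB1. Within the core particle the range was 9.04-fold, although the subunits of the core are present in equal number in the assembled particle. Within the alpha ring the range was 5.90-fold, from PSMA5 at 49.0 to PSMA7 at 289 FPKM. The beta ring covered 9.04-fold, from PSMB2 at 43.7 to PSMB1. ATPases ranged over 3.49-fold, from PSMC2 at 44.2 to PSMC5 at 154, and the non-ATPase subunits over 3.77-fold, from PSMD11 at 44.4 to PSMD4 at 167. The median core gene was at 206 and 203 FPKM in the controls and 213 and 224 in the KO libraries, and the median regulatory particle gene at 113 and 112 in the controls and 97.2 and 113 in the KO libraries. The median core gene was thus the more abundant in every library. These are medians of levels, and the gene in the middle can differ between libraries. With each gene set against its own control mean, the core median was 97.4% in KO 1 and 111.3% in KO 2. The regulatory median was 94.8% and 103.9%.

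The alpha ring forms the gate of the core. All 7 of its genes were expressed, and 3 of them had both KO libraries above both controls, as did 26.5% of all tested genes. PSMA1 was at 191 and 195 FPKM in the controls and 213 and 218 in KO 1 and KO 2, a difference of 0.16 (SE 0.08, limma adjusted p = 0.396). PSMA6, which contributes to the gate-lining ring, was at 162 and 156 in the controls and 172 and 184 in the KO libraries, a difference of 0.16 (SE 0.09, adjusted p = 0.415). PSMA2 was at 133 and 141, against 144 and 161 (0.15, SE 0.10, adjusted p = 0.490). In these 3 genes the groups did not overlap, with KO 2 the highest library each time, yet none passed the test. PSMA3, PSMA4, PSMA5 and PSMA7 had KO 1 below and KO 2 above both controls, with group differences from -0.03 to 0.06. PSMA4 showed the widest of these gaps, at 238 and 238 FPKM in the controls, 221 in KO 1 and 274 in KO 2.

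The beta ring carries the active sites. PSMB5, the chymotrypsin-like subunit and the target of bortezomib, was at 222 and 211 FPKM in the controls and 226 and 240 in the KO libraries (0.11, SE 0.09, limma adjusted p = 0.582). PSMB7, the trypsin-like subunit, was at 158.9 and 151.2, against 166.0 and 164.8 (0.09, SE 0.08, adjusted p = 0.594). Both had KO libraries above the controls without overlap. PSMB6, the caspase-like subunit, was at 228 and 231 FPKM in the controls, 213 in KO 1 and 230 in KO 2, so that KO 1 was the low library and KO 2 lay between the controls (-0.05, SE 0.09, adjusted p = 0.788). PSMB4, a non-catalytic subunit, was at 307 and 292 in the controls and 321 and 337 in the KO libraries, again without overlap (0.14, SE 0.09, adjusted p = 0.502). PSMB1, PSMB2 and PSMB3, which have no active site in the human core, had KO 1 below and KO 2 above both controls.

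PSMB10, the interferon-inducible subunit that takes the place of PSMB7 in the immunoproteasome, was the most uneven gene. It was at 25.1 and 26.2 FPKM in the controls, 17.1 in KO 1 and 29.1 in KO 2, so KO 1 stood at 66.8% of the control mean and KO 2 at 114%. Its group difference of -0.19 had an SE of 0.25 (limma adjusted p = 0.720). The other inducible catalytic subunits, which the selection left out, followed another order. PSMB9, which takes the place of PSMB6, was at 4.90 and 5.48 FPKM in the controls and 8.14 and 10.4 in the KO libraries, and PSMB8, which takes the place of PSMB5, stayed under 1 FPKM in all 4 libraries and was not tested. PSMB9 had the groups apart with a difference of 0.72 (SE 0.14, 95% interval 0.36 to 1.09, limma adjusted p = 0.183), which did not pass.

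The ATPase ring unfolds the substrate. Of its 6 genes, PSMC2 had both KO libraries below both controls, at 44.9 and 46.6 FPKM in the controls and 42.2 and 43.0 in the KO libraries (-0.10, SE 0.07, limma adjusted p = 0.532). PSMC4 was at 73.0 and 72.0 in the controls, 62.9 in KO 1 and 74.0 in KO 2, and PSMC6 at 62.5 and 68.2, against 63.7 and 60.8. KO 1 was low for PSMC4 and KO 2 for PSMC6, and their group differences were -0.09 (SE 0.10, adjusted p = 0.700) and -0.07 (SE 0.09, adjusted p = 0.709). The largest gap between the KO libraries in this ring was in PSMC3, named after its values were seen, at 120 and 122 FPKM in the controls, 96.4 in KO 1 and 130 in KO 2. PSMC1, also named after its values were seen, was at 129 and 133 in the controls and 136 and 135 in the KO libraries, which makes it the single ATPase gene with both KO libraries above both controls. PSMC5 had KO 1 below and KO 2 above.

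The 11 non-ATPase subunits include the ubiquitin receptors and the deubiquitinase. PSMD8, the lid subunit that joins last in assembly, had the highest difference of all 44 genes: it was at 118 and 112 FPKM in the controls and 128 and 134 in the KO libraries (0.19, SE 0.08, 95% interval -0.02 to 0.40, limma adjusted p = 0.341). The ubiquitin receptor PSMD4 was at 163 and 158, against 169 and 179 (0.12, SE 0.08, adjusted p = 0.518). In both, the KO libraries lay above the controls and KO 2 was the highest. PSMD2, the large scaffold that docks shuttle receptors, was at 163 and 171 in the controls and 158 and 160 in the KO libraries, below without overlap (-0.07, SE 0.08, adjusted p = 0.684). The deubiquitinase PSMD14 was at 118 and 123, against 114 in KO 1 and 125 in KO 2, on either side of the controls (-0.01, SE 0.09, adjusted p = 0.967). PSMD3, PSMD6, PSMD7 and PSMD13 had the same arrangement as PSMD14, with KO 1 below and KO 2 above. PSMD1 had KO 1 below and KO 2 between the controls, while PSMD11 and PSMD12 differed by at most 0.02 between the groups.

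The chaperones of the base bind the ATPases until the ring is complete. PSMD10 (gankyrin, also studied as a liver cancer oncoprotein) had the lowest difference of all 44 genes: it was at 40.5 and 43.6 FPKM in the controls and 36.7 and 36.5 in the KO libraries (-0.19, SE 0.08, 95% interval -0.40 to 0.01, limma adjusted p = 0.323). Its KO libraries agreed closely, at 87.3% and 86.8% of the control mean. PSMD5 was at 21.8 and 21.1 in the controls and 20.2 and 19.2 in the KO libraries (-0.12, SE 0.08, adjusted p = 0.494). Both KO libraries thus lay below both controls in 2 of the 3 base chaperones, an arrangement found in 25.6% of all tested genes. PSMD9 was at 19.8 and 17.2 FPKM in the controls, with KO 1 at 18.3 and KO 2 at 19.2 between them (0.02, SE 0.10, adjusted p = 0.919). The gap between its controls, 0.19 on the log2 scale, was the widest of the 44 genes and about the size of the differences of PSMD10 and PSMD8.

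The core chaperones PSMG1 to PSMG4 order the alpha ring, PSMG1 with PSMG2 and PSMG3 with PSMG4. PSMG1 was at 62.9 and 65.5 FPKM in the controls, 55.0 in KO 1 and 71.5 in KO 2 (-0.03, SE 0.14, limma adjusted p = 0.920). Its partner PSMG2 was at 69.7 and 67.5, against 58.2 and 69.2 (-0.11, SE 0.11, adjusted p = 0.637). Both were low in KO 1 alone, at 85.6% and 84.8% of the control mean. PSMG3 was at 93.5 and 85.2 in the controls and 94.3 and 98.8 in the KO libraries, above without overlap (0.11, SE 0.09, adjusted p = 0.560), and its partner PSMG4 was lower in KO 1 (19.3) and higher in KO 2 (22.4) than in either control (21.4 and 20.8).

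The activators PSME1 to PSME4 can cap the core in place of the regulatory particle. PSME1 and PSME2 form the interferon-inducible ring, and PSME1 was at 189 and 171 FPKM in the controls, 179 in KO 1 and 206 in KO 2 (0.09, SE 0.11, limma adjusted p = 0.700). PSME2 lay at 210 and 208, with KO 1 below at 191 and KO 2 above at 220. PSME3, the nuclear activator, was at 55.0 and 54.8 in the controls and 48.8 and 53.1 in the KO libraries, below without overlap (-0.11, SE 0.08, adjusted p = 0.542). PSME4, the large monomeric activator of the nucleus, was at 14.7 in both controls and 16.4 and 15.3 in the KO libraries, above without overlap (0.10, SE 0.08, adjusted p = 0.561). PSMF1, a binding protein of the core first described as its inhibitor, was at 26.0 and 26.9 in the controls, 22.3 in KO 1 and 27.1 in KO 2 (-0.10, SE 0.11, adjusted p = 0.682). The activators did not share a direction.

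Over the 44 genes, 11 had both KO libraries above both controls, against 26.5% of all tested genes, and 5 had both below, against 25.6%. The 11 were PSMA1, PSMA2, PSMA6, PSMB4, PSMB5, PSMB7, PSMC1, PSMD4, PSMD8, PSME4 and PSMG3, of which 6 belong to the core, and the 5 were PSMC2, PSMD2, PSMD5, PSMD10 and PSME3, none of them in the core. The share above (25%) was near the background and the share below (11.4%) under it. With another scaling the count below was larger, 12 of 44 after quantile normalization. The share of all tested genes under that scaling is not given here, so whether 12 lies under the background there is not known.

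**Figure D2:**
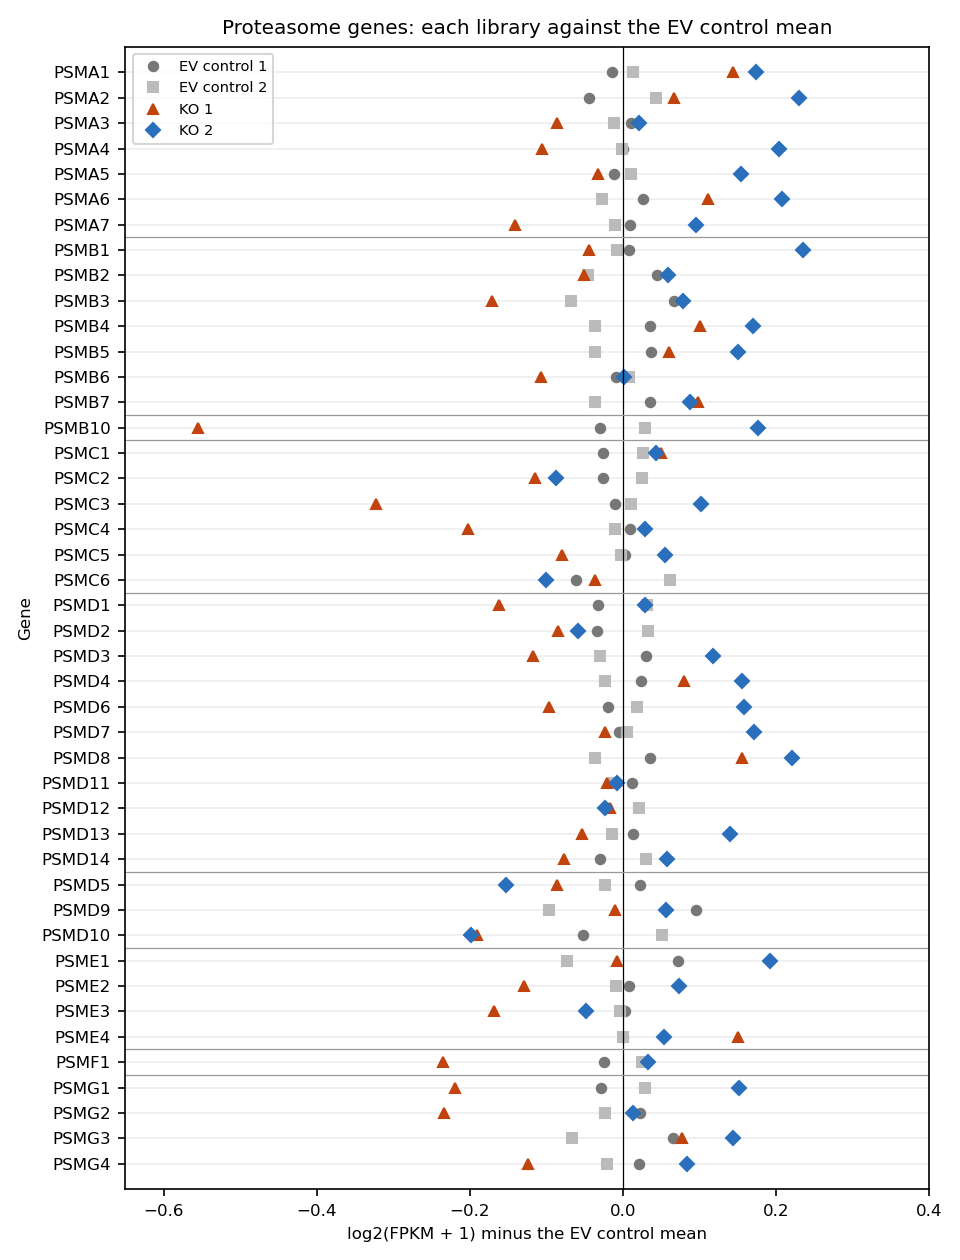
Difference of each library from the mean of the EV controls on the log2(FPKM + 1) scale (horizontal axis) for the 44 tested proteasome genes in order of role; markers are single libraries. KO 2 lies to the right of KO 1 in 37 of the 44 genes, and PSMB10 and PSMC3 have the lowest KO 1 values.

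The KO libraries stood on opposite sides of the controls for many of these genes. KO 2 was higher than KO 1 in 37 of 44, where 52.1% of all tested genes had KO 2 higher, and the median gene was 9.33% higher in KO 2. KO 1 lay below both controls in 29 genes and above both in 11, against 42.8% and 41.3% of all tested genes. KO 2 lay above both controls in 32 genes and below both in 7, against 45.7% and 41.4%. The arrangement with KO 1 below and KO 2 above both controls held in 20 of 44 genes (45.5%), against 12.8% of all tested genes, and the reverse, KO 1 above and KO 2 below, in 0 genes, against 10.0%. The median of the 44 genes was -0.08 in KO 1 alone and 0.08 in KO 2 alone, where all tested genes had medians of 0.00 and 0.01. These comparisons share both controls. The target gene was also unequal in the KO libraries, at 15.5% and 66.2% of the control mean, and its part in these differences was not tested.

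Fitted with either KO library left out, a few proteasome genes passed the limma test. In these fits a lone library is assumed to vary as the controls do, so that its difference from the controls is called more often across the genome. With KO 2 alone, 1 of 44 was called higher, against 10.9% of all tested genes, and 0 lower, against 6.62%. The gene was PSMB1, named after its values were seen, at 383 and 378 FPKM in the controls and 448 in KO 2 (0.24, SE 0.05, adjusted p = 0.0436), whereas KO 1 was at 369. With KO 1 alone, 0 of 44 were called higher, against 6.29%, and 2 lower, against 6.94%. These were PSMB10 (-0.56, SE 0.07, adjusted p = 0.0140) and PSMC3 (-0.32, SE 0.05, adjusted p = 0.0257), both of which lay above the controls in KO 2. No proteasome gene was therefore called in both libraries, and each of the 3 called genes lay on the other side of the controls in the other KO library.

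The core particle was set against the regulatory particle because subunits of both are needed for the complete proteasome. The 14 core genes had a median group difference of 0.08 and the 17 regulatory genes one of -0.01, so the core stood 0.09 higher. By library, core minus regulatory was 0.021 and -0.021 in the controls, 0.039 in KO 1 and 0.098 in KO 2, each against the control mean. The value was higher in both KO libraries than in the controls, but KO 1 exceeded EV control 1 by less than the controls differed. An exact permutation test over 2 libraries against 2 cannot go below a two-sided p of 0.333, so this difference of medians is a description.

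In both particles the genes of KO 2 lay mostly above those of KO 1. In KO 1 the core median was -0.04 and the regulatory median -0.08, and in KO 2 they were 0.15 and 0.06. In KO 2, 13 of 14 core genes were above both controls and none below, with levels of 100.2% to 117.8% of the control mean, while 11 of 17 regulatory genes were above and 4 below, with 93.1% to 116.7%. Of all tested genes, 45.7% were above both controls in KO 2 and 41.4% below. In KO 1 the core genes ranged from 88.7% to 110.6% and the regulatory genes from 79.8% to 111.4%. There 8 of 14 core and 12 of 17 regulatory genes lay below both controls, against 42.8% of all tested genes. By role, the group medians were 0.06 for the alpha ring, 0.09 for the beta ring, -0.08 for the ATPases, 0.00 for the non-ATPase subunits, -0.12 for the base chaperones, -0.03 for the core chaperones and 0.03 for the activators.

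**Figure D3:**
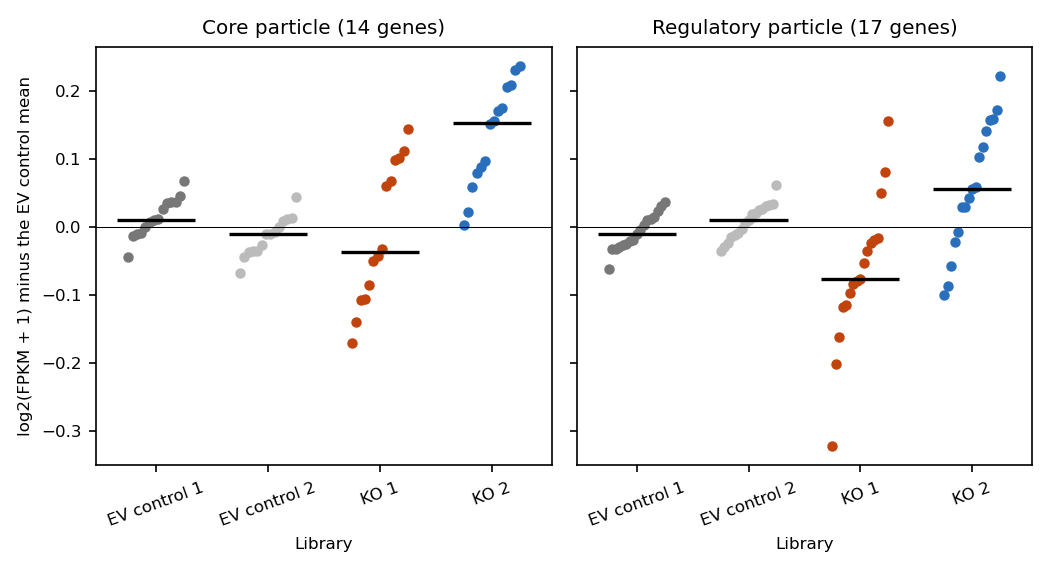
Difference from the mean of the EV controls on the log2(FPKM + 1) scale for the 14 core genes (left) and the 17 regulatory particle genes (right) in each library; points are genes in rank order and bars are medians. The KO 2 median lies above zero and the KO 1 median below it in both parts, and the core median is above the regulatory median in both KO libraries.

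Other genes of the pathway were described from a list of 32 that the symbol rule does not take, of which 31 were tested. None was called by limma (0 higher, 0 lower), 2 were lower and 1 higher before adjustment (p under 0.05), against 7.22% and 9.23% of all tested genes, and their median difference was -0.05. Both KO libraries lay above both controls in 5 and below both in 14 of the 31 genes, against 26.5% and 25.6% of all tested genes. DDI2, the protease that cleaves NFE2L1 into its active form, had the smallest p of the list: it was at 3.10 and 3.68 FPKM in the controls and 1.52 and 1.20 in the KO libraries, a difference of -0.89 (SE 0.14, 95% interval -1.26 to -0.52, limma adjusted p = 0.161). Both KO libraries were well below the controls, at 44.9% and 35.5% of their mean, although the level is low and the pseudocount of 1 understates the fold. DDI2 overlaps RSC1A1 in the annotation, and their fragments may not be told apart.

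NFE2L1 itself was at 60.6 and 59.3 FPKM in the controls, 53.6 in KO 1 and 42.5 in KO 2 (-0.32, SE 0.13, limma adjusted p = 0.315). NFE2L2, the related factor of the oxidative stress response, was at 59.9 and 61.5, against 54.3 and 52.4 (-0.18, SE 0.08, adjusted p = 0.323). Both factors were lower in both KO libraries without overlap, and neither passed the test. KO 2 had the lower NFE2L1 level and the higher level of most proteasome genes, and a relation between them was not tested. POMP, which matures the core, was at 108 and 111 in the controls and 114 and 124 in the KO libraries (0.12, SE 0.09, adjusted p = 0.517). ADRM1, a ubiquitin receptor of the regulatory particle, was at 119 and 123, against 110 and 122 (-0.06, SE 0.09, adjusted p = 0.777). PAAF1, a chaperone of the base, was at 9.10 and 9.90 in the controls and 8.08 and 7.79 in the KO libraries, below without overlap (-0.23, SE 0.09, adjusted p = 0.306).

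Among the receptors that carry ubiquitinated substrates to the proteasome, UBQLN2 was at 11.98 and 12.08 FPKM in the controls and 10.4 and 8.73 in the KO libraries (-0.30, SE 0.11, limma adjusted p = 0.285). UBQLN1, UBQLN4 and RAD23B also had both KO libraries below both controls. UCHL5, a deubiquitinase held by ADRM1 and named after its values were seen, was at 32.1 and 33.6 in the controls, 30.84 in KO 1 and 10.99 in KO 2, which is 33.5% of the control mean in KO 2 alone. With KO 1 left out, limma called 3 of the 31 pathway genes higher (PSMB9, RPS27A, UFD1L) and 4 lower (UCHL5, NFE2L1, DDI2, UBQLN2), against 10.9% and 6.62% of all tested genes. With KO 2 left out it called 2 higher (PSMB9, ZFAND5), and DDI2 was among those called lower, against 6.29% of all tested genes higher and 6.94% lower. PSMB9 and DDI2 were called in both of these fits, which share the controls, and in neither direction with all 4 libraries together.

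**Figure D4:**
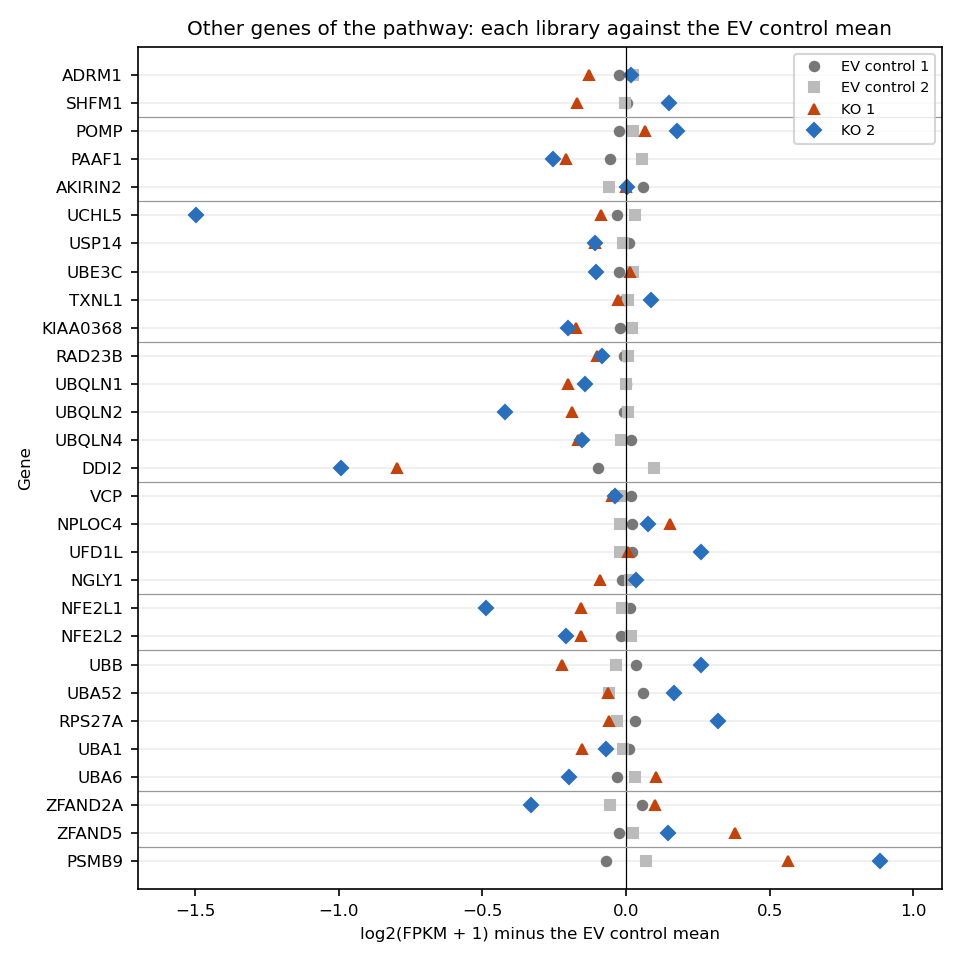
Difference of each library from the mean of the EV controls on the log2(FPKM + 1) scale (horizontal axis) for 29 of the 31 tested pathway genes outside the symbol rule, in order of role; markers are single libraries. DDI2 lies lowest in KO 1, UCHL5 and DDI2 lowest in KO 2, and PSMB9 highest in both KO libraries.

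Position and gene overlap are described here, and their effect on the values was not tested. The 46 genes lie on 17 chromosomes, and 8 of them share chromosome 14 with C14orf159 (PSMA3, PSMA6, PSMB5, PSMB11, PSMC1, PSMC6, PSME1 and PSME2). The 7 of these that were tested had a median of 99.3% of the control mean in KO 1 (91.4% to 108.1%) and 105.2% in KO 2 (93.1% to 115.6%). PSMC1 is the nearest, 16 genes before the target in RefSeq order, and stood at 103.5% and 103.0% of the control mean in KO 1 and KO 2. Among the genes between them at 5 FPKM or more, NRDE2 stood at 111.6% and 93.0% and TTC7B at 53.9% and 131.8%. RefSeq names at least 1 pseudogene for 21 of the 46 genes, 52 in all and 13 of them for PSMC1, and antisense genes overlap PSMA3 and PSMD6. In RefSeq, PSMC1 overlaps NRDE2, PSMA6 overlaps PRORP-PSMA6, PSMC2 overlaps PMPCB and PSMC5 overlaps FTSJ3. PSMD10 overlaps ATG4A and PSMG2 overlaps CEP76, and further overlaps are not listed here. How fragments shared with such copies or lying on the other strand were counted is not stated in the labels or headers, so levels of these genes carry that uncertainty.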

How the data were processed

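Poly(A) RNA was sequenced from stranded TruSeq libraries, per the labels' protocols. The authors deposited FPKM for each gene symbol, 1 value per gene and library. The file headers name no unit; FPKM was read from the Cuffnorm layout and from low values that step with transcript length. Reads were processed against hg19 with Bowtie2 2.2.3, TopHat2 2.0.13, Cuffnorm 2.2.1 and SAMtools 0.1.19, per the submitters' processing notes. Not given in the sources used here are the annotation, how libraries were scaled to each other and whether counting used strand.

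Values were transformed to log2(FPKM + 1), which understates changes of low genes. Genes at 1 FPKM or more in at least 2 of 4 libraries were fitted with limma 3.58.1 in R 4.3.3 (mean-variance trend, no term but the group), with Benjamini-Hochberg adjustment over all 12701 genes and a threshold of 0.05. The script was tested on simulated data. The members and lists were chosen with earlier results of these data known. Values were printed for the 3 genes of each role with the smallest p, the catalytic subunits, PSMD4, PSMD14, the target, and in the pathway list the 4 with the smallest p plus NFE2L1, NFE2L2, POMP and ADRM1; other genes with values were chosen after these were seen. Depth was estimated from 2074 single-transcript genes of 1000 to 6000 nt (GENCODE release 29). It was taken from the median product of FPKM and length in kilobases between 0.06 and 0.1. That window bounds the estimate, which is rough, and counting errors derived from it cover counting alone. Alternatives were quantile normalization, median-of-ratios scaling, pseudocounts of 0.1 and 0.5, no filter, a 5 FPKM filter, robust limma-trend, limma without the trend, a replicate block, leaving out each library and a fit without small RNA genes. Adjusting for GC content and transcript length was added after the data were seen. A few genes that the lists cover are not reported here.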

Additional observations from a re-analysis of the deposited data

How the results depend on the processing

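With all 4 libraries, the counts of called proteasome and pathway genes were 0 under every alternative fit. Without a filter on low values, 1 proteasome gene was higher and 1 lower before adjustment (p under 0.05). Of all 18961 genes tested there, 1352 were higher and 1213 lower. After the correction for GC content and transcript length, 1 proteasome gene was lower before adjustment. Of all 12701 genes tested there, 1072 were lower. Proteasome genes with both KO libraries below both controls numbered 12 after quantile normalization and 11 after that correction, against 5 in the main fit (the cause was not tested). The shares of all tested genes under those settings are not given here. The correction turned PSMD14 to 0.0876. Leaving out each library in turn gave 0 to 1 proteasome genes called higher and 0 to 2 lower, before adjustment 0 to 15 higher and 0 to 10 lower (p under 0.05), and 0 to 3 pathway genes called higher and 0 to 4 lower. The upper values of these counts come from leaving out KO 1 for higher calls and for lower pathway calls, and KO 2 for lower proteasome calls. With either KO library left out, more of all tested genes also passed before adjustment, in both directions, than in the main fit. The proteasome counts from those fits are therefore not read as a response of these genes in particular. The median of the proteasome genes ranged from -0.0777 to 0.0817 and core minus regulatory from 0.0387 to 0.0979. Among the genes that the naming rule gives, the sign turned when 1 library was left out for PSMB10 (-0.555 to 0.177), PSMC4 (-0.202 to 0.0289), PSMB6 (-0.107 to 0.00241), PSMD9 (-0.0724 to 0.120), PSMD14 (-0.0764 to 0.0585), PSME1 (-0.00762 to 0.193), PSMF1 (-0.235 to 0.0336), PSMG1 (-0.220 to 0.153), PSMG2 (-0.234 to 0.0134) and ADRM1 (-0.130 to 0.0178). The sign of each of the 20 genes with KO 1 below and KO 2 above both controls, named or not, also depends on which KO library is kept.

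The groups share replicate numbers, and the labels name no pairing. The correlation of the control difference with the KO difference over genes was -0.00455. A single correlation over all genes cannot show whether libraries of the same number shared a batch. The fit with a replicate block called 0 proteasome genes and gave PSMD10 an adjusted p of 0.556 and PSMD8 one of 0.599 (limma); over all genes it called 4 higher and 8 lower. Depth limits the low genes most: PSMB10, PSMG4 and PSMD5 rested on an estimated 188, 198 and 260 fragments in their lowest library.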
